A study of Mus musculus with 6 samples.

Results

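Inhibins and activins are dimeric hormones of the transforming growth factor-β (TGF-β) family that share their subunits. A dimer of β subunits is an activin, which signals through activin receptors and the proteins SMAD2 and SMAD3, while a β subunit joined to the α subunit is an inhibin, which blocks activin at its receptor with the help of the co-receptor betaglycan. Follistatin and follistatin-like 3 bind activins outside the cell. Anti-Müllerian hormone (AMH) is a relative with a dedicated type II receptor and signals through SMAD1 and SMAD5. In the ovary the granulosa cells of the follicle are the main source of inhibin and AMH, and the AMH receptor is also made by the surface epithelium.

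The genes described here are *Inha*, which encodes the inhibin α subunit, *Inhba* and *Inhbb* (the βA and βB subunits), *Fst* and *Fstl3* (the follistatins), *Tgfbr3* (betaglycan), *Amh* and its receptor gene *Amhr2*. These 8 of the 20405 genes on the array were picked by name, and each had 1 probe set. Total RNA of 2 cultured lines of FVB/N mouse ovarian surface epithelium was measured on whole-transcript Affymetrix arrays (Mouse Gene ST), with 3 arrays per line. M0505 is the early passage line, and STOSE is the line that arose from it by spontaneous transformation in long-term culture. The labels name no engineered change in either line, and both were grown in the same medium, which contained 4% fetal calf serum, 0.002 μg/mL EGF and 1 μg/mL ITSS. The labels name the samples biological replicates of 1 line each and do not say how the cultures were separated, so a p-value here measures the spread between these arrays and not between independently transformed lines.

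Values are robust multi-array average (RMA) signals on a log2 scale. An RMA value of 4.72, the 95th percentile of 1134 probe sets for olfactory receptor genes, served as the background, and 70.8% of all genes had a mean above it. Replicate 1 stood somewhat apart in each line. Across genes its root mean square difference from the other M0505 arrays was 0.185 and 0.188, against 0.130 between replicates 2 and 3, and in STOSE cells it was 0.180 and 0.198 against 0.139. A gene was called changed at a limma adjusted p under 0.05 over all 20405 genes together with at least a 2-fold difference. By this rule STOSE cells had 1000 genes called higher (4.90%) and 1548 called lower (7.59%), and with each array centred on its median the split was 1466 against 1177.

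Of the 8 genes, *Amhr2* and *Inha* were down-regulated and *Fst* and *Tgfbr3* were up-regulated in STOSE cells. The other 4, among them both activin β subunit genes and *Amh* itself, differed by less than 2-fold. The 4 calls stand beside a background of 12.5% of all genes called in either direction. At an adjusted p under 0.05 alone all 8 genes passed, 4 in each direction, as did 56.5% of all genes (31.6% higher and 24.8% lower), though *Inhba*, *Fstl3* and *Amh* did not pass without some of the arrays. At 4-fold 3 of the 8 passed, *Fst* higher and *Inha* and *Amhr2* lower, against 3.41% of all genes (0.912% higher and 2.49% lower). The arrays of the lines did not overlap for 7 of the 8 genes, *Amh* being the exception, and that was also the case for 64.6% of all genes (37.6% with STOSE cells higher and 27.0% lower). Without replicate 1 of both lines the log2 fold change was −4.76 for *Amhr2*, −4.12 for *Inha* and 2.07 for *Fst*, all still called. The median log2 fold change of the 8 was −0.07, against 0.08 over all genes.

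**Figure D1:**
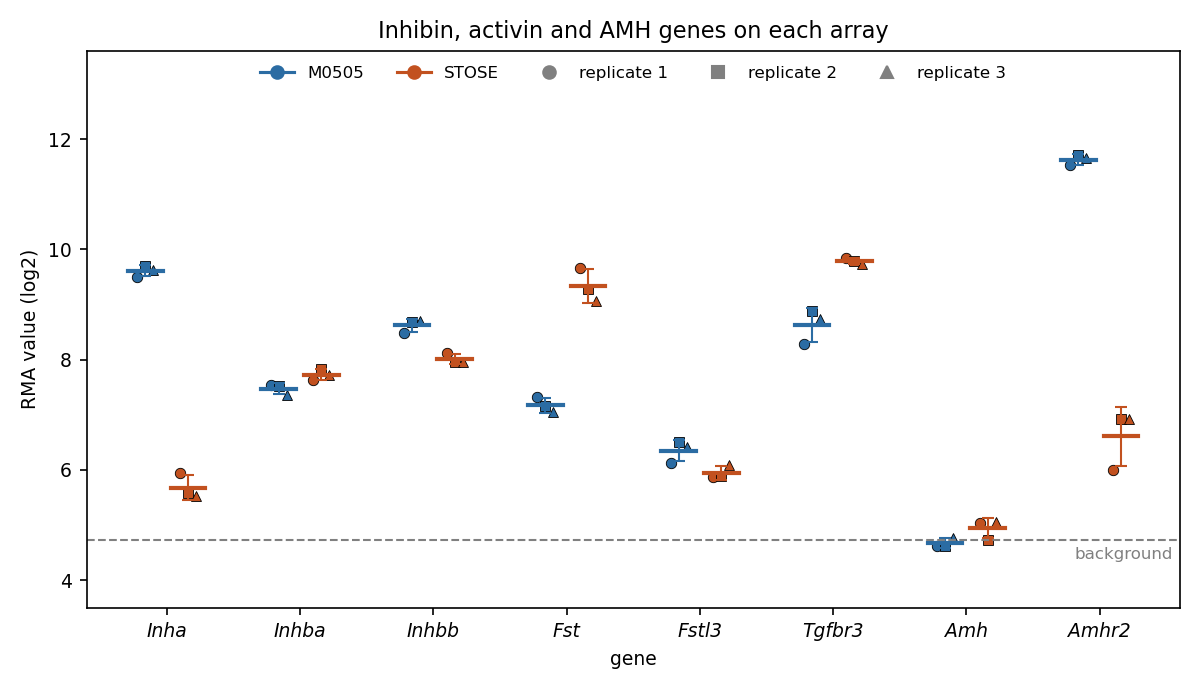
RMA value (log2) of each gene on each of the 6 arrays, with M0505 cells in blue and STOSE cells in orange. Symbols mark the replicate number, thick lines the mean and whiskers the SD of 3 arrays, and the dashed line is the background of 4.72. *Amhr2* falls from a mean of 11.63 to 6.61 and *Inha* from 9.61 to 5.68, while *Amh* lies near the background, with 4 of 6 arrays above it.

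For each gene that fell, the 250 bases before the start annotated in the promoter table used are shown. Both genes have been described as targets of steroidogenic factor 1 in gonadal cells, and the gene of that factor was among those measured. The windows come from RefSeq annotation of GRCm38.p6, in which 5 of the 8 genes had an entry in the table used. Much of the *Inha* window reads in an open frame as inhibin α coding sequence. It therefore appears to lie inside the gene and is not read as its promoter. Capitals mark the letters AAGGTCA on either strand, which the factor (NR5A1) is known to read.
Amhr2, chr15:102445117-102445366, plus strand: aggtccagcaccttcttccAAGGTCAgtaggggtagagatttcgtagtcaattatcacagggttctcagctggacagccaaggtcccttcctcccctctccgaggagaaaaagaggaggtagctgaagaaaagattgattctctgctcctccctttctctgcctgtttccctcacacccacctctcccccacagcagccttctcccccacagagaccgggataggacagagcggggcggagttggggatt
Inha, chr1:75507359-75507608, plus strand: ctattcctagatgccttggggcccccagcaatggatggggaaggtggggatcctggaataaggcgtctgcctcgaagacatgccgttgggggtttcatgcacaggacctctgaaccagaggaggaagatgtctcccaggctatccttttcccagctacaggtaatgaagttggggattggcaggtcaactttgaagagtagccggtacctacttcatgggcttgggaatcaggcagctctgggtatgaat

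The *Amhr2* window holds AAGGTCA at positions −231 to −225 from the start. These letters occur in 4.08% of 32851 promoter windows of the same length. They are not in the windows of *Inhba*, *Inhbb* or *Fstl3*. The *Inha* window also lacks them, but it appears to lie inside the gene, so the *Inha* promoter was not searched. Other motifs were searched on both strands and are in none of the 5 windows, of which that of *Inha* does not describe a promoter. They were TGACG, the core read by cyclic AMP response factors, found in 17.8% of all windows, and TGANTCA, the AP-1 site, found in 6.75%. The GATA factor letters AGATAA are in 9.99% of all windows, and the forkhead letters GTAAACA are in 3.17%. The windows of *Fst*, *Amh* and *Tgfbr3* were not analysed here. A match is a description of the letters and was not tested as a binding site.

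*Inha*, whose product turns activin subunits into inhibin, had RMA values of 9.50, 9.70 and 9.63 in M0505 cells and of 5.94, 5.57 and 5.52 in STOSE cells. The highest STOSE array lay well under the lowest M0505 array. The linear fold change was −15.3 (log2 change −3.93 ± 0.11 SE, adjusted p by limma = 4.55e-08), which ranked 96 among the falls of all genes. The STOSE mean remained 0.95 above the background on the log2 scale, so a residual signal was measured.

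The activin β subunit genes changed far less. *Inhba* had values of 7.53, 7.53 and 7.35 in M0505 cells and of 7.63, 7.82 and 7.73 in STOSE cells, with the lines close but not overlapping. Its log2 fold change was 0.26 (SE 0.08, adjusted p by limma = 0.0217), and 0.46 with arrays centred on their median. The adjusted p was 0.0768 without M0505 replicate 3, 0.0788 without STOSE replicate 2 and 0.0543 without STOSE replicate 3. *Inhbb* had values of 8.49, 8.68 and 8.69 in M0505 cells and of 8.11, 7.96 and 7.96 in STOSE cells. All STOSE arrays were lower, by 0.61 on the log2 scale (SE 0.08, adjusted p by limma = 0.000210), a linear fold change of −1.53.

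Among the activin-binding proteins, *Fst* was up-regulated. It had values of 7.32, 7.16 and 7.05 in M0505 cells and of 9.66, 9.28 and 9.07 in STOSE cells, and within each line replicate 1 was the highest. The linear fold change was 4.48 (log2 change 2.16 ± 0.14 SE, adjusted p by limma = 4.31e-06), ranking 156 among the rises. *Fstl3* had values of 6.13, 6.50 and 6.42 in M0505 cells and of 5.87, 5.89 and 6.10 in STOSE cells. The gap between its lines was narrow, with a log2 fold change of −0.40 (SE 0.11, adjusted p by limma = 0.0128), under 2-fold. After a further quantile normalization that difference was −0.21, with an adjusted p of 0.138, and centring gave 0.131. Without M0505 replicate 2 the adjusted p was 0.0511.

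*Tgfbr3*, the betaglycan gene, had values of 8.29, 8.87 and 8.74 in M0505 cells and of 9.84, 9.79 and 9.73 in STOSE cells. M0505 replicate 1 was the low array of its line, and all STOSE arrays were higher than all M0505 arrays. The linear fold change of 2.23 (log2 change 1.15 ± 0.14 SE, adjusted p by limma = 0.000130) lay close to the 2-fold threshold. It was 0.98 on the log2 scale without M0505 replicate 1 and 0.96 without replicate 1 of both lines, and the call was lost in both cases.

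*Amhr2* showed the largest difference of the 8 genes. It had values of 11.52, 11.71 and 11.65 in M0505 cells and of 5.995, 6.92 and 6.93 in STOSE cells, where replicate 1 was the low array. The linear fold change was −32.3 (log2 change −5.01 ± 0.23 SE, adjusted p by limma = 5.30e-07), which ranked 41 among the falls of all genes. The STOSE mean lay 1.89 above the background on the log2 scale. Without STOSE replicate 1 the log2 fold change was −4.70.

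The ligand of this receptor was measured near the background in both lines. *Amh* had values of 4.63, 4.62 and 4.77 in M0505 cells and of 5.04, 4.74 and 5.06 in STOSE cells, so that the lines overlapped and 4 of the 6 arrays were above the background. Its log2 fold change of 0.27 had a limma adjusted p of 0.0416. That p was 0.0888 after a further quantile normalization and 0.00286 with arrays centred on their median (log2 fold change 0.47). Leaving out single arrays gave adjusted p-values between 0.004995 and 0.131, and 0.199 without replicate 1 of both lines.

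**Figure D2:**
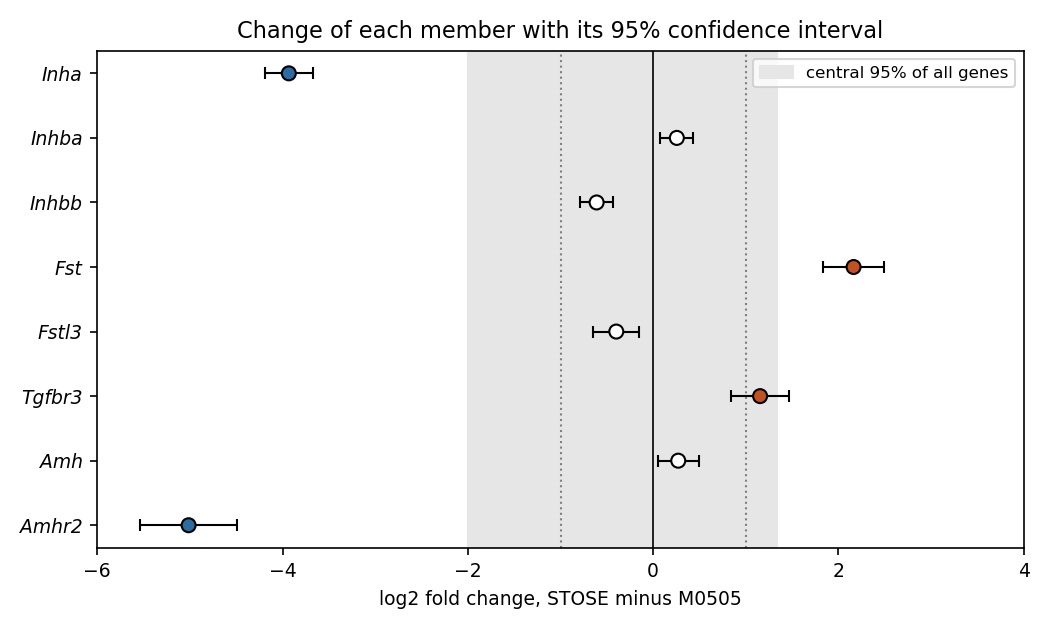
Log2 fold change of STOSE over M0505 cells for each gene, with limma's 95% confidence interval over 3 arrays per line. Blue and orange points were called lower and higher, open points were not called, dotted lines mark 2-fold and the gray band is the central 95% of all genes, from −1.996 to 1.34. *Inha*, *Amhr2* and *Fst* lie outside the band and *Tgfbr3*, at 1.15, inside it.

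Because the α and β subunits compete for partners, the change of one gene relative to another was computed within each array as a difference of log2 values. Relative to *Inhba*, *Inha* fell by 4.19 on the log2 scale from M0505 to STOSE cells, with an SD of 0.16 in M0505 and 0.31 in STOSE cells (n = 3 each, exact permutation p = 0.1). Relative to *Inhbb*, *Inha* fell by 3.32. *Inhba* gained 0.87 on *Inhbb* and lost 1.91 against *Fst*, the activin-binding protein gene, but gained 0.65 on *Fstl3*. *Inha* lost 5.09 against its co-receptor gene *Tgfbr3*. No change is given for a seventh pair, *Amh* and *Amhr2*, because the mean of *Amh* was not above background in M0505 cells. The arrays of the lines did not overlap in any of these 6 pairs, each with the exact two-sided p of 0.1 that is the smallest 3 against 3 arrays can give (0.1 also after Benjamini-Hochberg adjustment over all 7 computed). These values show unequal change between genes and not which transcript was the more abundant.

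**Figure D3:**
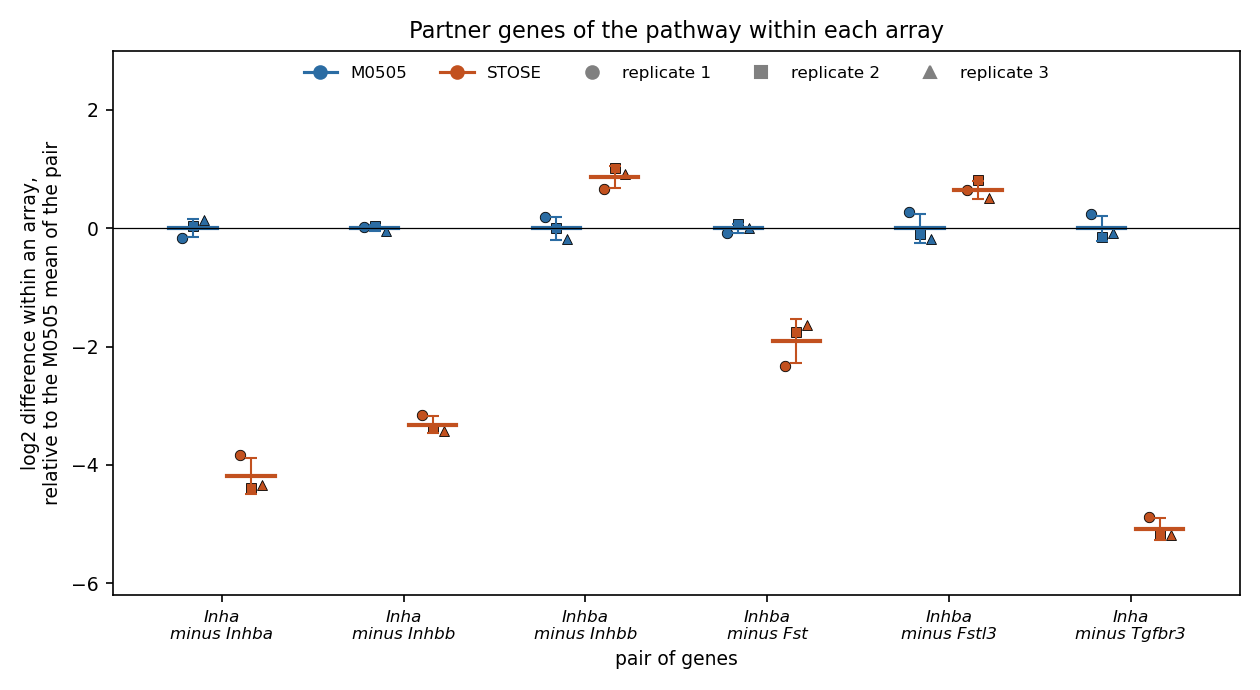
Difference of log2 values between 2 genes of the same array, set to 0 at the mean of the M0505 arrays, for 6 pairs. Points are arrays, thick lines means and whiskers the SD of 3 arrays. STOSE arrays of *Inha* minus *Inhba* lie from −4.39 to −3.83.

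The wider pathway was read from 7 lists of other genes, 85 of 86 of which were measured. Of these, 16 were lower and 1 was higher in STOSE cells, which is 20.0% called against 12.5% of all genes (4.90% higher and 7.59% lower), and their median log2 fold change was −0.06. The lists hold genes that share signals with other TGF-β family members, and some genes are in more than 1 list.

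Of 13 receptor genes 1 was called (7.69%, against 12.5% of all genes), *Acvr1c*, a type I receptor of activin B and nodal. It had values of 5.85, 6.40 and 6.50 in M0505 cells and of 3.92, 4.07 and 4.05 in STOSE cells, which lie below the background, so that it was at least 2.89-fold lower (adjusted p by limma = 5.15e-06). Such a bound sets each STOSE array to the background where its own value is under it. The type II activin receptor gene *Acvr2a* had a log2 fold change of −0.38 and *Acvr2b* of −0.07, and the type I receptor gene *Acvr1b* was at −0.92 and was called lower without M0505 replicate 1 (−1.02) or STOSE replicate 2 (−1.01). Of the type I receptors that pair with the AMH receptor, *Bmpr1a* was at −0.45, *Acvr1* at −0.02, and *Bmpr1b* was at or below background on all arrays. The median of the receptor list was −0.07.

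Of the 8 SMAD genes, the inhibitory *Smad6* and the receptor-regulated *Smad9* fell, which is 25% against the 7.59% of all genes called lower. *Smad6* went from 9.55 ± 0.21 (SD, n = 3) to 7.42 ± 0.09, a linear fold change of −4.38, and *Smad9* from 6.95 ± 0.18 to 5.60 ± 0.11, a linear fold change of −2.54. The activin mediators *Smad2* and *Smad3* had log2 fold changes of −0.27 and 0.63, and the common partner *Smad4* of 0.13. The list median was −0.10.

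Among 16 other ligands 4 were lower in STOSE cells, which is 25% against 7.59% of all genes, and *Bmp2* is among the 4 only through values under the background. The bone morphogenetic protein genes *Bmp4* and *Bmp6* had the lowest log2 fold changes of the 7 lists. *Bmp4* had values of 9.73, 10.07 and 10.13 in M0505 cells and of 4.63, 4.72 and 4.65 in STOSE cells, where 1 of 3 arrays was above background. It was at least 38.2-fold lower (adjusted p by limma = 6.82e-09). *Bmp6* went from 10.53 ± 0.04 to 5.33 ± 0.03, a linear fold change of −36.9. *Tgfb3*, a TGF-β ligand gene, fell by 1.82 on the log2 scale. *Bmp2* was below background in STOSE cells and at least 1.32-fold lower, and the list median was 0.09. Of the 16 measured genes for other antagonists and for the convertases that cut the precursors, limma called 0 at 2-fold, beside 12.5% of all genes. At an unadjusted limma p under 0.05, 4 were higher and 4 lower. The convertase gene *Furin* was at −0.93 (limma adjusted p = 1.44e-05) and was called lower without M0505 replicate 3. The follistatin-like gene *Fstl1* was at −0.88 (limma adjusted p = 5.91e-05) and *Bambi* at 0.39 (limma adjusted p = 0.00474), each under 2-fold. Of the 16 genes, 7 were at background on all arrays.

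**Figure D4:**
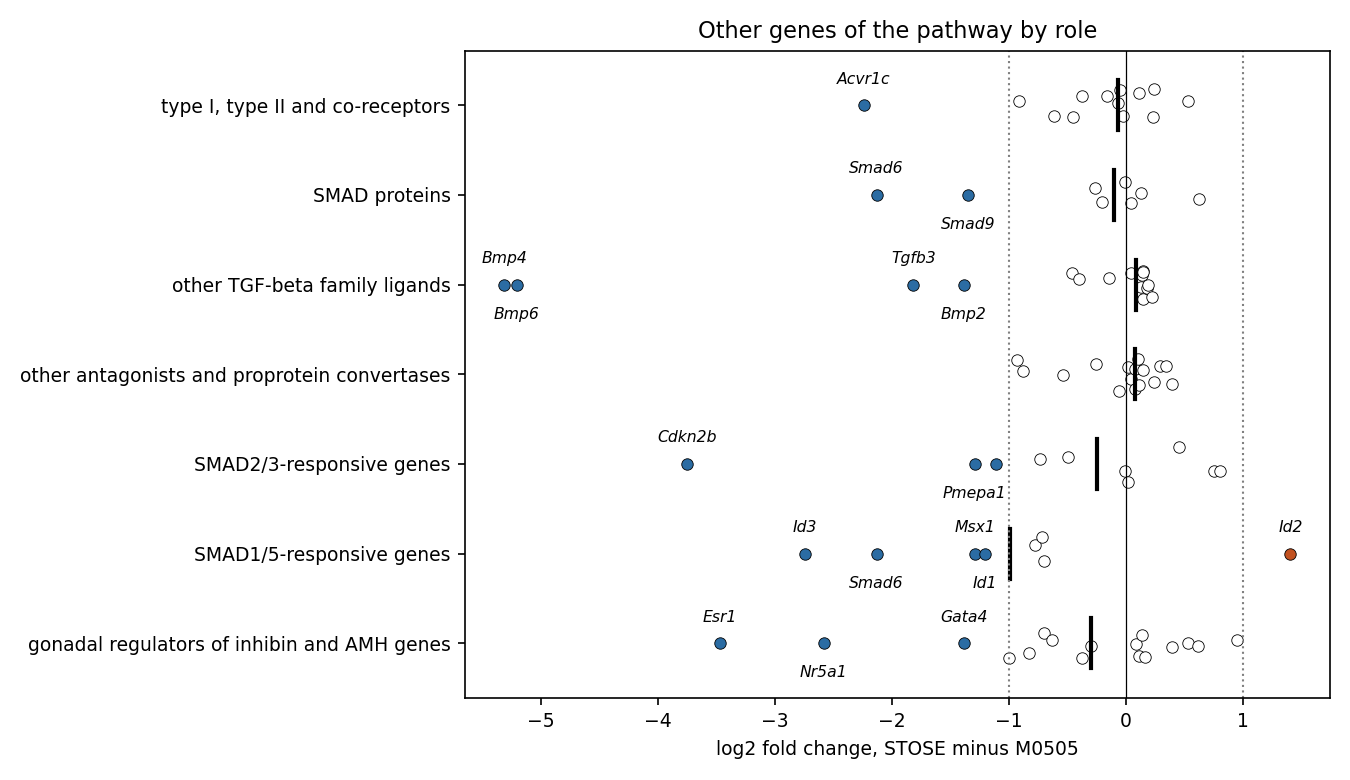
Log2 fold change of STOSE over M0505 cells for the measured genes of 7 lists, 1 point per gene. Blue points were called lower and orange points higher, open points were not called, black bars are list medians and dotted lines mark 2-fold. *Bmp4*, whose STOSE mean is below background, at −5.31 and *Bmp6* at −5.20 lie farthest to the left, and *Id2* at 1.41 is the 1 gene called higher.

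Genes known to respond to SMAD1 and SMAD5, the route of AMH and the bone morphogenetic proteins, had the lowest median of the 7 lists at −0.99. Of 8 genes 4 fell and 1 rose, which is 62.5% called against 12.5% of all genes (7.59% lower and 4.90% higher). *Id3*, an inhibitor of basic helix-loop-helix factors, had values of 8.18, 8.42 and 8.46 in M0505 cells and of 5.16, 5.83 and 5.83 in STOSE cells (linear fold change −6.69, log2 change −2.74 ± 0.18 SE, adjusted p by limma = 3.51e-06). Its relative *Id1* went from 10.12 ± 0.35 to 8.91 ± 0.30 (linear fold change −2.30), and the homeobox gene *Msx1* from 7.07 ± 0.20 to 5.78 ± 0.28 (linear fold change −2.44). *Smad6*, also in this list, is given above. *Id2* went the other way, from 9.32 ± 0.16 to 10.73 ± 0.06 (linear fold change 2.65).

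Of 10 genes that respond to SMAD2 and SMAD3, the route of activin and TGF-β, 3 fell, which is 30.0% against the 7.59% of all genes called lower, and the list median was −0.25. Among them were *Cdkn2b*, which encodes a cyclin-dependent kinase inhibitor, at −3.75 on the log2 scale, and *Pmepa1*, which encodes an inhibitor of TGF-β signaling, at −1.29.

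Of 17 regulators of gonadal inhibin and AMH genes, 3 were lower in STOSE cells, which is 17.6% against the 7.59% of all genes called lower, with a list median of −0.30. *Nr5a1*, the gene of steroidogenic factor 1, had values of 7.91, 7.94 and 8.07 in M0505 cells and of 5.30, 5.52 and 5.35 in STOSE cells (linear fold change −5.99, log2 change −2.58 ± 0.08 SE, adjusted p by limma = 6.41e-08). *Gata4*, a gonadal transcription factor, went from 10.78 ± 0.10 to 9.40 ± 0.11 (linear fold change −2.60), and the estrogen receptor gene *Esr1* from 9.25 ± 0.05 to 5.78 ± 0.07 (linear fold change −11.0). *Wt1* was at −0.63 and *Gata6* at −0.30. *Sox9* was at 0.95 and was called higher with arrays centred on their median (1.15), without M0505 replicate 1 (1.09), without STOSE replicate 3 (1.00) and without replicate 1 of both lines (1.00). *Sox8* lay at the 2-fold line from below, at −0.9999, and was called lower without M0505 replicate 3, STOSE replicate 2 or STOSE replicate 3 (−1.05 each) and without M0505 replicate 1 (−1.02).

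The cell types in these RNA samples were read from marker lists, since fewer cells of a type and less RNA per cell cannot be told apart in bulk RNA. Of 7 granulosa cell markers limma called 0 at 2-fold, beside 12.5% of all genes. At an unadjusted limma p under 0.05, 2 were higher and 2 lower. *Fshr*, the follicle-stimulating hormone receptor gene, and *Cyp19a1*, the aromatase gene, were at or below background on all 6 arrays. *Foxl2*, a granulosa cell transcription factor gene, and *Kitl*, the KIT ligand gene, were above it on all 6, with log2 fold changes of −0.37 and 0.56. Both passed limma's adjusted p (0.00243 and 0.000585) but not the 2-fold threshold. *Nr5a2*, a relative of *Nr5a1*, was above background on the 3 M0505 arrays and below it on the 3 STOSE arrays. Its log2 fold change of −0.70 (limma adjusted p = 0.000506) was also under 2-fold. The summed linear signal of the 7 markers was 741 to 878 in M0505 cells and 1020 to 1091 in STOSE cells, and *Kitl* had the brightest probe set. Of 5 measured theca and steroidogenic markers, 4 were at background on all arrays and *Star* fell by 5.97 on the log2 scale, the 1 call being 20% beside the 7.59% of all genes called lower.

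The labelled tissue was checked in the same way. All 12 measured markers of the ovarian surface epithelium were above background on at least 1 array, and their summed linear signal was 31689 to 33078 in M0505 cells and 16864 to 18100 in STOSE cells. *Upk3b*, an uroplakin gene with the brightest probe set of the list, was at 12.25 and 11.91, and *Wt1* at 11.39 and 10.76. Of the 12, *Krt7*, *Krt8*, *Krt19*, *Lgr5* and *Aldh1a2* fell, which is 41.7% against the 7.59% of all genes called lower. The keratin gene *Krt19* went from 11.17 ± 0.02 to 5.61 ± 0.27 and *Krt8* from 11.37 ± 0.03 to 6.82 ± 0.14, so the falls of *Inha* and *Amhr2* occurred beside falls of epithelial markers, whose part in the result was not tested.

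The chromosomal neighbours of the 4 called genes were read in the gene order of GRCm38.p6, 2 measured genes to each side, a choice made after the values were seen. The authors' karyotypes showed abnormal chromosome numbers in both lines. M0505 cells had a terminal deletion of chromosome 1 and STOSE cells a loss of chromosome 5. Copy number at these genes was not tested here. Of the 4 neighbours of *Inha* on chromosome 1, 2 were called lower in STOSE cells, beside 7.59% of all genes. Its next gene on one side, *Obsl1*, a cytoskeletal linker gene, had values of 9.33, 9.61 and 9.50 in M0505 cells and of 6.87, 7.13 and 7.23 in STOSE cells (linear fold change −5.28, log2 change −2.40 ± 0.11 SE, adjusted p by limma = 5.34e-07). On the other side *Stk11ip* was at −1.03 and was called, and *Slc4a3* at −0.996 was not, while *Tmem198*, beyond *Obsl1*, was at −0.04 with overlapping arrays. *Amhr2*, on chromosome 15, lay between *Sp1*, at 0.20, and *Prr13*, at −0.35, and each of its 4 neighbours differed by less than 2-fold. The same held for *Fst* on chromosome 13, between *Ndufs4* at −0.12 and *Mocs2* at −0.42. Of the neighbours of *Tgfbr3* on chromosome 5, *Cdc7* was at 0.94 and *Ephx4* was called lower, with all 3 STOSE arrays below background.

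**Figure D5:**
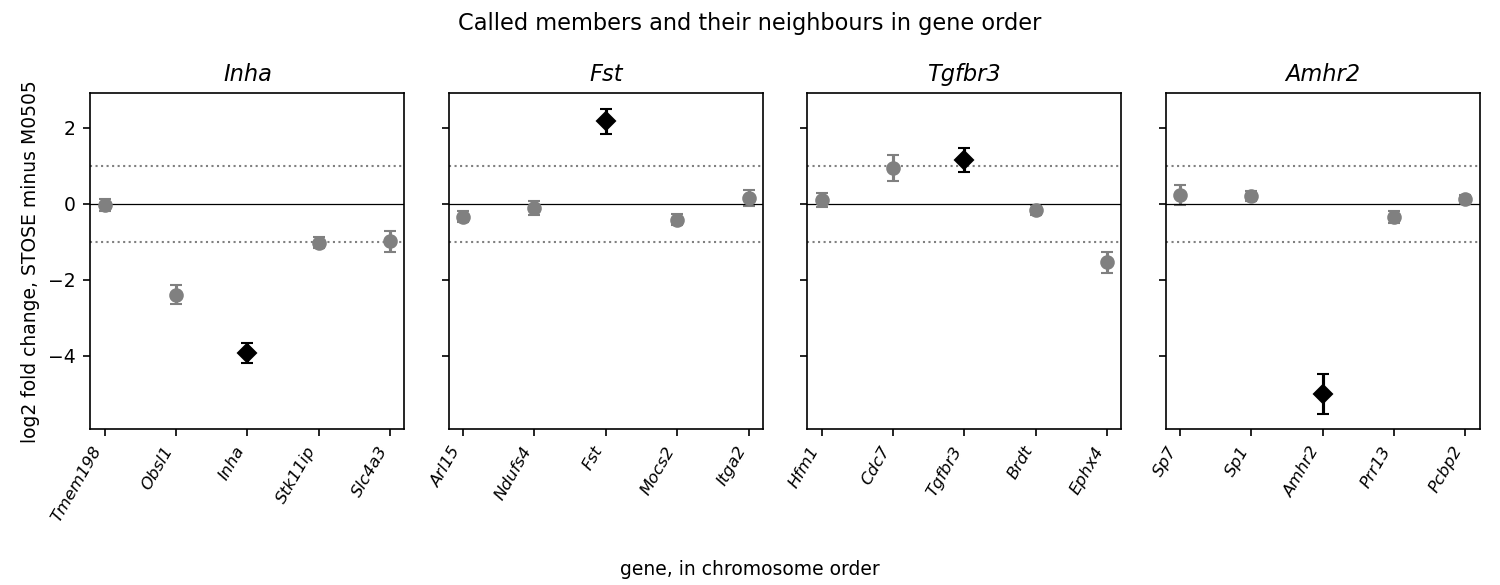
Log2 fold change of STOSE over M0505 cells for the 4 called genes (black diamonds) and the 2 measured genes on each side in chromosome order (gray circles), with 95% confidence intervals from limma over 3 arrays per line. Dotted lines mark 2-fold. *Obsl1* at −2.40 lies next to *Inha* at −3.93, while the neighbours of *Amhr2* lie from −0.35 to 0.22.

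The genes most like each called gene were found by the root mean square distance over the 6 arrays after each gene was centred on its own mean, a measure set mostly by the difference between the lines. The nearest to *Amhr2* were *Sgce*, the ε-sarcoglycan gene, at a distance of 0.13, *Peg10*, a retrotransposon-derived gene next to it on chromosome 6, at 0.24, and the cathepsin C gene *Ctsc* at 0.25. In *Sgce* replicate 1 was the low array of each line, as it was in *Amhr2*, with STOSE values of 4.65, 5.66 and 5.45. The nearest to *Inha* were *Amigo2* (0.08), *Fgd4* (0.10) and *Ndrg2* (0.11). *Fst* was nearest to *Hivep3* (0.11), *Cdc42ep3* (0.11) and *Orc1l* (0.12), and *Tgfbr3* to *Ppp1r14b* (0.08), *Acadl* (0.08) and *Itgb3bp* (0.09). *Amigo2*, *Fgd4* and *Ctsc* were below background on all 3 STOSE arrays, and *Sgce*, *Peg10* and *Itgb3bp* were below it on replicate 1 of 1 line, so these distances rest in part on values under it.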

How the data were processed

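RNA of 3 M0505 and 3 STOSE samples was labeled from 300 ng and hybridized, 1 array per sample. The authors processed the arrays by RMA, in Affymetrix Expression Console per the submitters' processing notes, and deposited 1 table of log2 values with 28944 probe sets. Versions and genome build are not given in the sources used here. The authors' means, ratio and linear fold changes in the same table (4 columns) were not used, and 0 columns of per-sample values were left over. RMA could not be rerun without probe signals, so background correction was not varied.

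Probe sets without a symbol (5414) were left out and each gene was read from its brightest probe set. STOSE and M0505 arrays were compared in R 4.3.3 by limma 3.58.1 (lmFit, then eBayes), without covariates, with Benjamini-Hochberg adjustment over 20405 genes. The number of arrays limits the precision. Tested on simulated data for this comparison, with 200 of 20405 genes changed, the code recovered 100% of those changed by 1.5 and 100% of those changed by 3 on the log2 scale, with 0 false calls.

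The 8 genes and all lists were chosen with earlier results of these data known. The lists were receptors, SMAD proteins, other ligands, antagonists and convertases, genes responsive to SMAD2 and SMAD3 or to SMAD1 and SMAD5, gonadal regulators, and markers of granulosa, theca, surface epithelium, stroma, oocytes, leukocytes and endothelium. Named were the 8 genes, called list genes, list genes needed to state a level, and the 3 genes of nearest pattern to each called gene. *Pcsk5*, *Insl3* and *Muc16* were not analysed here. Some list genes enter the counts but are not reported here by name. Alternatives were a further quantile normalization, median centring, filters on the dimmest 25% and 50%, the mean of probe sets, an intensity trend with robust estimation, other fold thresholds, a replicate block and leaving out arrays.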

Additional observations from a re-analysis of the deposited data

How the results depend on the processing

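The fold threshold moved the counts most. At an adjusted p alone, 6454 genes were higher and 5066 lower, with 4 and 4 of the 8 genes and 20 and 39 of the other pathway genes. At 4-fold, 186 and 509 of all genes, 1 (*Fst*) and 2 of the 8 and, by limma, 0 and 8 of the other pathway genes were called. Median centring moved the median log2 fold change of all genes from 0.08 to 0.28 and called 3 pathway genes higher (among them *Id2* and *Sox9*). With each array left out in turn, 1 to 2 of the 8 genes and 1 to 2 pathway genes were higher. Without replicate 1 of both lines, an alternative chosen after seeing the data, 1 of the 8 and 2 pathway genes were higher, and *Tgfbr3* was the gene lost (0.98 without M0505 replicate 1, 0.96 without both). *Inha*, *Amhr2* and *Fst* kept their calls and direction under every alternative at 2-fold, with log2 fold changes of −4.12 to −3.73, −5.17 to −4.70 and 2.00 to 2.36. No gene of the 8 and no pair changed sign. With the dimmest 50% left out, *Amh* and *Fstl3* were not tested. Deviations of same-numbered arrays correlated at 0.26, 0.04 and 0.25 across genes, and those of different-numbered arrays at −0.29 to 0.12. STOSE replicate 2 correlated best with M0505 replicate 3 (0.12). Replicates 1 and 3 thus shared some deviation between the lines, and the labels do not say whether same-numbered arrays were paired. With the replicate block 1001 genes were higher and 1548 lower, and the 8 genes had 2 and 2 calls. Values near the background, as for *Amh* and for *Acvr1c* in STOSE cells, limit what can be read of a fold change there.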

Other observations

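Each of the 4 marker lists here had 1 called gene, a share of 16.7% or 20%, beside 12.5% of all genes called. Of 6 leukocyte markers 1 was called, *Cd68*, a lysosomal glycoprotein gene used as a macrophage marker, with an RMA value of 9.78 ± 0.26 (SD, n = 3) in the M0505 line and 6.96 ± 0.30 in the STOSE line (log2 fold change −2.82, limma adjusted p = 2.39e-06). *Ptprc*, *Csf1r*, *Itgam* and *Emr1* were at or below background on all 6 arrays, and *Cd14*, a lipopolysaccharide co-receptor gene, was above it on all 6 and went from 5.78 ± 0.07 to 6.75 ± 0.23 (log2 fold change 0.97, limma adjusted p = 0.000105), under 2-fold. Of 5 endothelial markers 1 was called, *Kdr*, a vascular endothelial growth factor receptor gene, which went from 9.58 ± 0.08 to 4.41 ± 0.29, below background on all 3 STOSE arrays, so that it was at least 29.0-fold lower (limma adjusted p = 2.36e-08), while *Pecam1* was above background on 1 of 6 arrays and *Cdh5* was at 0.20. Of 5 stromal markers the collagen gene *Col1a2* fell by 2.45, and *Col1a1*, which encodes its partner chain, was at 0.95. Of 6 oocyte markers *Ddx4* was called higher, but its values of 3.22 ± 0.08 and 4.32 ± 0.07 lay at or below background on all 6 arrays.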
